A study of Homo sapiens with 6 samples.

Results

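CCNG1 and a set of other genes known to respond to p53 were followed in TE-1, a human cell line from an oesophageal squamous cell carcinoma, after stable knockdown of EIF3C. The set was fixed as 9 genes: CCNG1, CDKN1A, MDM2, TP53I3, ZMAT3, BTG2, RRM2B, XPC and GADD45A. Of these, 8 had a probe set annotated with that gene alone, out of 18132 genes with such a probe set, and all 8 passed the filter on dim genes that left 13599 genes to test. BTG2 was not analysed here. The probe set of a gene was selected on its mean signal, as the highest over the 6 arrays, and the other probe sets served as a check. CCNG1 was put at the head of the set because of its low signal in knockdown cells, so its values are given as a description without a test. The remaining genes were also grouped with results of these data known.

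The 3 knockdown arrays hold RNA of TE-1 cells with stable EIF3C knockdown, described as a clone, and the 3 control arrays hold RNA of the parental TE-1 cells. Both were grown in RPMI-1640 with foetal bovine serum, and the labels name no construct, no cells with a control construct and no DNA-damaging agent. Replicates are called biological, but nothing says that they came from separate cultures, so p-values measure no more than the spread of these arrays, possibly a technical one. What distinguishes the clone from its parent other than EIF3C cannot be told apart from the knockdown.

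The transcription factor p53 is stabilised when DNA is damaged or ribosome assembly is disturbed, and it then activates genes that halt the cell cycle, repair DNA or lead to cell death. MDM2 is both a target of p53 and the ubiquitin ligase that removes it, which closes a negative feedback loop. Many of these genes are also driven by other factors, so their level is no direct readout of p53 activity, which was not measured.

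Signals are on the log2 scale as deposited. Array medians lay between 6.09 and 6.11, and any pair of arrays correlated at 0.9977 or more within a group and at 0.9846 or less between the groups. The target was low as labelled. On the brightest of 5 probe sets, which EIF3C shares with its near-identical copy EIF3CL, the log2 signal was 8.44 ± 0.04 in knockdown cells and 10.62 ± 0.06 in control cells (SD, n = 3 each), or 22.1% of control. Of 14 squamous epithelial marker genes, 11 had a probe set and all 11 passed the filter, which left out the lowest 25% of genes. In knockdown cells 2 of them were higher and 5 lower, set beside 32.4% and 34.1% of all genes. Their control means ran from 5.19 to 11.89. KRT5 at 5.91 and KRT14 at 5.85 stood no higher than the leukocyte marker LAPTM5 at 6.24, so passing the filter identifies no cell type. Fibroblast markers passed the filter in 1 of 6 cases and leukocyte markers in 3 of 5, with log2 differences between -0.18 and 0.13 in these lists. Endothelial markers passed it in 4 of 5, with 1 higher and 1 lower.

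The promoters of CCNG1 and MDM2 are shown because they hold the best matches to the p53 response element among the promoter windows available for the set. For CCNG1 this holds only when a spacer is allowed inside the element. RefSeq windows of GRCh38.p14, from 250 bases before to 50 bases after a start site, were matched by symbol for 6 of the 8 genes, in 11 windows. The element consists of 2 copies of a 10-base consensus that is its own reverse complement, so a search of 1 strand covers both. An unbroken copy of the 10-base consensus was in none of the 11 windows and in 6.63% of all 35116 windows. With no spacer and at most 2 mismatches over 20 bases, both windows at the internal start site of MDM2 matched, against 0.649% of all windows. With a spacer of 0 to 13 bases the windows of CCNG1 also matched, against 7.82% of all windows. That match has a spacer of 9 bases and 2 mismatches, an A in each copy where the consensus has a fixed C. Without a spacer the CCNG1 windows had 6 mismatches at the fewest, more than the window of XPC at 3. The 250 bases before a start site are printed 5′ to 3′ with the matched bases in capitals. The matched stretch lies 42 to 14 bases before the start site of CCNG1 and 94 to 75 bases before that of MDM2.
CCNG1, chr5:163437321-163437570, plus strand: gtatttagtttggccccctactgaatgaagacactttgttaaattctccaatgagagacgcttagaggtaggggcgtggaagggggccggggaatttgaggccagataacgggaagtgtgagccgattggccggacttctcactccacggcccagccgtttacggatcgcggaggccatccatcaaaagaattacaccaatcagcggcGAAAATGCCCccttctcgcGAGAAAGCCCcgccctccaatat
MDM2, chr12:68808767-68809016, plus strand: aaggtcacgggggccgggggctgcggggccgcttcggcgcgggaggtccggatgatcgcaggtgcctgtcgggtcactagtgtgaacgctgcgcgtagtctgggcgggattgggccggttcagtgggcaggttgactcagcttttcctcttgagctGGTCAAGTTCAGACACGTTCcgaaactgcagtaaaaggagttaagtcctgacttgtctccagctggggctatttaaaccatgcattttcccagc
A match describes these letters only, and windows without one say nothing of sites further away or in introns.

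The 8 genes did not move one way. The cell cycle genes CCNG1 and CDKN1A, the repair gene XPC, and TP53I3 and ZMAT3 were lower in knockdown cells, and MDM2, RRM2B and GADD45A were higher. Beside CCNG1, 7 genes were tested by limma with Benjamini-Hochberg adjustment over all 13599 genes, and 3 rose and 4 fell at an adjusted p of 0.05. Over all genes 66.5% passed, 32.4% higher and 34.1% lower, so a call by itself is common in this comparison. The 3 knockdown and 3 control arrays did not overlap for any of these 7 genes, as was the case for 70.3% of all genes. On the probe sets read, CCNG1 alone of the 8 differed by at least 2-fold, and 4.82% of all genes were called with a change of that size. Of the 7 genes beside CCNG1 the middle log2 difference was -0.35, that of CDKN1A, against a median of -0.03 over all genes tested. With CCNG1, which was chosen for its low signal, the median of the 8 genes was -0.39. The differences of the 85 non-human control probe sets ran from -0.22 to 0.20. Those 7 genes differed by more than any of these controls, as did 50.9% of all genes tested. Within a group the SD of the 8 genes lay between 0.01 and 0.10.

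**Figure D1:**
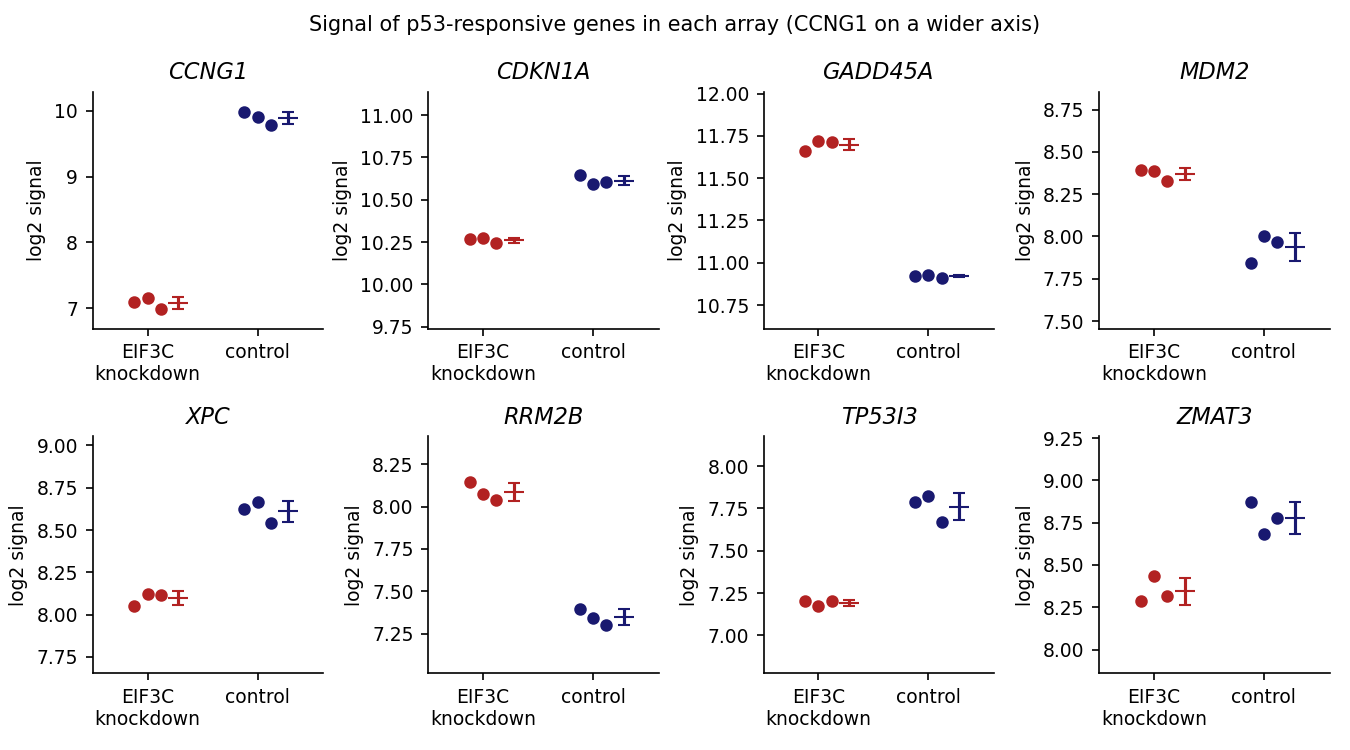
Log2 signal (vertical axis) of 8 p53-responsive genes, 1 point per array, with EIF3C knockdown in red on the left and control in dark blue on the right of each panel, and bars for mean ± SD (n = 3 each). The groups are apart in every panel, with a gap of 2.62 for CCNG1 and of 0.25 for ZMAT3, the narrowest.

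CCNG1 encodes cyclin G1, an atypical cyclin that recruits protein phosphatase 2A to MDM2 and is among the earliest known p53 targets. Its log2 signal on probe set 11715674_s_at was 7.09, 7.16 and 6.99 in the knockdown arrays, against 9.98, 9.91 and 9.79 in the control arrays. The lowest control array stood 2.62 above the highest knockdown array. Knockdown cells averaged 7.08 ± 0.09 and control cells 9.89 ± 0.10 (SD, n = 3 each), so that 14.3% of the control signal was left, a 7.02-fold difference. The log2 difference was -2.81, with a standard error of 0.05. Of all tested genes, 2 were lower by more, and by size in either direction CCNG1 was in place 8. Its other 4 probe sets were also lower in knockdown cells in every array. Over the 5 probe sets the log2 difference ran from -2.81 to -2.28, and control means ran from 7.64 to 9.89.

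CDKN1A encodes p21, the inhibitor of cyclin-dependent kinases through which p53 halts cells before DNA replication. Its log2 signal was 10.27, 10.27 and 10.24 in the knockdown arrays, against 10.64, 10.59 and 10.61 in the control arrays. All knockdown arrays were below all control arrays. The fall was 0.35 on the log2 scale (SE 0.03, adjusted p = 2.51e-09 by limma), which left 78.3% of the control signal. Fewer cells expressing a gene and less RNA per cell cannot be told apart in these bulk samples. A further probe set fell by 0.27. Over all genes tested, 2248 were lower by more.

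GADD45A encodes a small stress protein that binds PCNA and MAP3K4 and restrains the passage from G2 to mitosis. Its log2 signal was 11.66, 11.72 and 11.71 in the knockdown arrays, against 10.92, 10.93 and 10.91 in the control arrays. The gap between the groups was 0.73. The rise of 0.78 (SE 0.02, adjusted p = 2.39e-14 by limma) was a 1.71-fold difference on the 1 probe set of the gene, and 680 genes were higher by more. The level of GADD45A is also set by factors other than p53.

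MDM2, the ligase of the feedback loop, went the opposite way to CCNG1 and CDKN1A. Its log2 signal was 8.39, 8.39 and 8.33 in the knockdown arrays, against 7.84, 8.00 and 7.97 in the control arrays. The rise was 0.43 (SE 0.05, adjusted p = 4.77e-07 by limma), a 1.35-fold difference. MDM2 had 11 probe sets, of which 10 passed as higher in a fit over all 49293 human probe sets, where 24.1% passed as higher. The probe set that did not pass, 11731568_x_at, stood at 6.52 ± 0.08 in knockdown cells and 6.51 ± 0.03 in control cells (SD, n = 3 each, adjusted p = 0.937 by limma). Over the 11 probe sets the log2 difference ran from 0.01 to 0.85, the highest on a dim probe set with a control mean of 3.74.

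XPC encodes the damage sensor that starts global nucleotide excision repair, and RRM2B the p53-inducible small subunit of ribonucleotide reductase, which makes deoxynucleotides outside S phase. XPC had log2 signals of 8.05, 8.12 and 8.12 in the knockdown arrays, against 8.62, 8.67 and 8.54 in the control arrays. It was lower in each knockdown array than in any control array, and fell by 0.51 (SE 0.04, adjusted p = 1.87e-08 by limma), to 70.1% of the control signal. Its second probe set fell by 0.37. RRM2B had log2 signals of 8.14, 8.07 and 8.04 in the knockdown arrays, against 7.39, 7.34 and 7.30 in the control arrays. It rose by 0.74 (SE 0.05, adjusted p = 6.9e-10 by limma), a 1.67-fold difference. All 9 of its probe sets passed as higher, with log2 differences from 0.63 to 1.25, and the probe set read here is the brightest of the 9 but not the one with the largest rise. These genes of DNA repair and nucleotide supply thus moved in opposite directions.

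TP53I3 encodes a quinone oxidoreductase linked to oxidative stress, and ZMAT3 an RNA-binding zinc finger protein that acts on splicing and transcript stability. TP53I3 had log2 signals of 7.20, 7.17 and 7.20 in the knockdown arrays, against 7.79, 7.82 and 7.67 in the control arrays. Its fall of 0.57 (SE 0.05, adjusted p = 5.16e-08 by limma) on its 1 probe set left 67.4% of the control signal, the lowest share after CCNG1. ZMAT3 had log2 signals of 8.28, 8.43 and 8.31 in the knockdown arrays, against 8.87, 8.68 and 8.78 in the control arrays. It fell by 0.43 (SE 0.05, adjusted p = 8.75e-07 by limma), and a second probe set fell by 0.23. The gap between its groups, 0.25, was the narrowest of the 8 genes. The probe set read for ZMAT3 carries the suffix _x_at, which in Affymetrix naming marks probes that may also bind other sequences. Some of the further probe sets of CCNG1, MDM2 and RRM2B carry the same suffix.

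**Figure D2:**
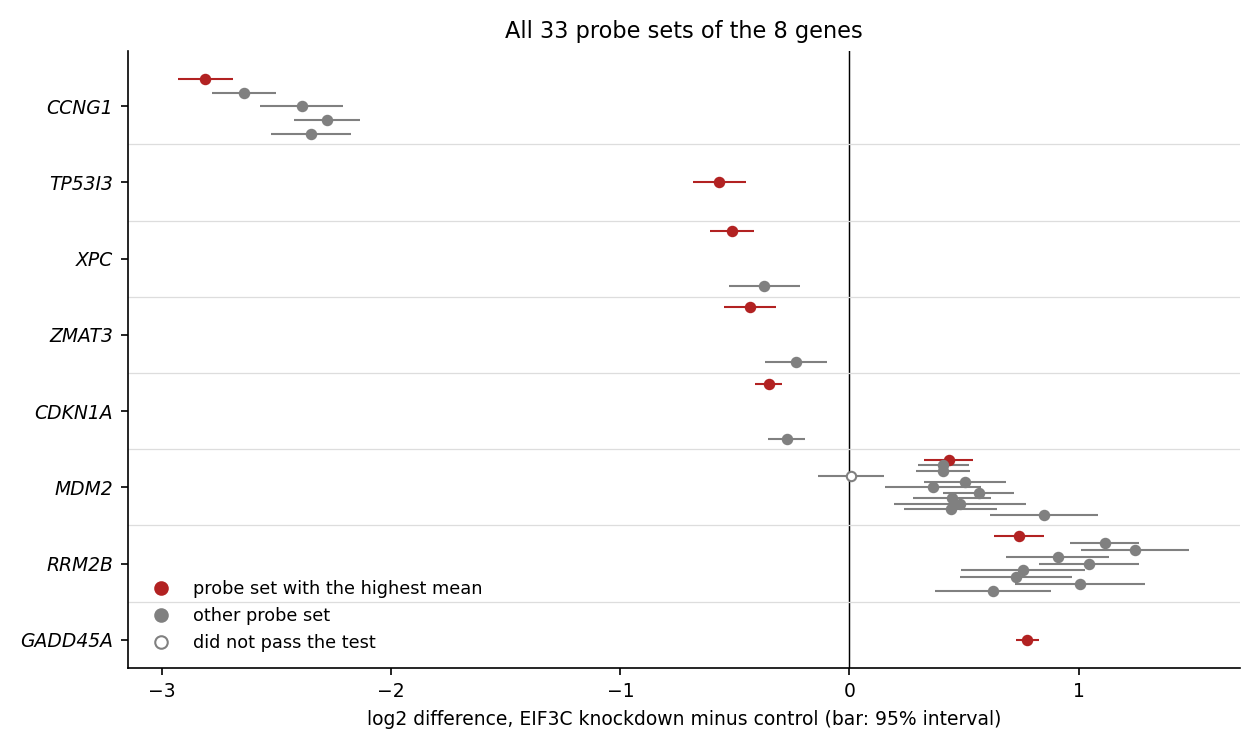
Log2 difference between EIF3C knockdown and control (horizontal axis, with 95% intervals of the limma fit) for all 33 probe sets of the 8 genes, the brightest of each gene in red and the others in grey. Each gene keeps to 1 side of 0, CCNG1 between -2.81 and -2.28, and the open point of MDM2 at 0.01 did not pass the test. CCNG1 was chosen for its low signal, so its filled points and intervals are a description and not a test.

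Without the 5 probe sets of CCNG1, the other genes of the set had 28, of which 20 passed as higher and 7 as lower in knockdown cells, and 1 did not pass. In this fit 48.2% of all human probe sets passed. The groups did not overlap for 27 of the 28, against 55.4% of all human probe sets. In no gene did probe sets pass in opposite directions. Probe sets of a gene share its transcripts, and 20 of the 28 belong to MDM2 and RRM2B, so these counts are no measure of independent genes.

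Genes that act on p53 were split. Of 16 regulators, 14 were tested, of which 4 rose and 6 fell, set beside 32.4% and 34.1% of all genes, with a median log2 difference of -0.05. RCHY1, a ubiquitin ligase that also targets p53, stood at 8.61 ± 0.04 in knockdown cells and 7.01 ± 0.12 in control cells (SD, n = 3 each), a rise of 1.61 (adjusted p = 2.65e-13 by limma). HIPK2, a kinase that phosphorylates p53, rose by 0.94 (adjusted p = 1.32e-13 by limma) on the probe set read, while its 9 probe sets ran from -0.00 to 0.94. MDM4, the partner of MDM2 that masks the activation domain of p53, stood at 8.16 ± 0.05 in knockdown cells and 8.83 ± 0.03 in control cells (SD, n = 3 each). It fell by 0.68 (adjusted p = 1.98e-10 by limma), opposite to MDM2, and over its 6 probe sets the difference ran from -0.68 to 0.10. The checkpoint kinase gene CHEK2 fell by 0.45 (adjusted p = 2.02e-06 by limma). CHEK1, a further checkpoint kinase gene, rose by 0.37 and the ubiquitin ligase gene COP1 fell by 0.23, with every probe set of both genes called. The remaining 4 calls, USP7 at 0.16, TP73 at -0.17, PPP1R13L at -0.13 and CDKN2A at -0.11, lay within the range of the non-human controls. USP7 had a further probe set called lower, and averaging its probe sets ended the call. TP73 was called on 1 of its 9 probe sets, and did not pass when probe sets were averaged, without knockdown replicate 1 or without control replicate 1.

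The further p53 targets listed here were lower more often than higher. Of 34 targets in 3 lists, 32 had a probe set and 30 were tested, of which 18 fell and 6 rose, set beside 34.1% and 32.4% of all genes. Their median log2 difference was -0.24. These and the other gene lists were chosen with earlier results of these data known, so the counts describe the listed genes only. In the list of arrest and signalling targets, 8 of 13 fell and 2 rose (median -0.24). TP53INP1, a stress protein that aids phosphorylation of p53, had log2 signals of 5.86, 5.67 and 5.74 in the knockdown arrays, against 7.36, 7.28 and 7.32 in the control arrays. It fell by 1.56 (adjusted p = 2.41e-12 by limma), and a further probe set stood at -0.24. SESN2, a sestrin that restrains mTORC1 and is also a target of ATF4, had log2 signals of 7.53, 7.54 and 7.61 in the knockdown arrays, against 8.96, 8.98 and 8.88 in the control arrays. It fell by 1.38 (adjusted p = 5.94e-14 by limma), to 0.384 times the control signal. The polo-like kinase genes PLK2 and PLK3 rose by 0.89 and 0.57.

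Among cell death targets, 7 of 11 fell and 3 rose (median -0.25). Of the 7, TNFRSF10B at -0.21 lay within the range of the non-human controls. It was called on 1 of its 3 probe sets, and was not called when probe sets were averaged. APAF1 did not pass without knockdown replicate 1 or without knockdown replicate 3. BAX was called on 1 of its 2 probe sets. FAS, the death receptor, had log2 signals of 7.17, 7.28 and 7.10 in the knockdown arrays, against 4.95, 5.26 and 5.08 in the control arrays, the largest change of any p53 target listed here other than CCNG1. Its rise of 2.09 (adjusted p = 9.04e-13 by limma) was a 4.25-fold difference, and its control level was near the filter on dim genes at 4.63. PMAIP1, which encodes the BH3-only protein NOXA, rose by 0.84 (adjusted p = 9.68e-12 by limma). BBC3, which encodes the BH3-only protein PUMA, fell by 0.52 (adjusted p = 2.31e-06 by limma), so these p53-inducible BH3-only genes moved in opposite directions. TRIAP1, a small mitochondrial protein that protects from apoptosis, fell by 0.65.

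Among repair and metabolism targets, 3 of 6 fell and 1 rose (median -0.12). DDB2, which recognises ultraviolet damage together with DDB1 ahead of XPC, had log2 signals of 7.85, 7.97 and 7.79 in the knockdown arrays, against 8.59, 8.54 and 8.51 in the control arrays. It fell by 0.68 (adjusted p = 2.25e-09 by limma), on both of its probe sets. FUCA1, a lysosomal fucosidase, fell by 0.25 and the ribosomal protein paralogue RPS27L by 0.11. TIGAR, a fructose bisphosphatase that restrains glycolysis, rose by 0.19 on the probe set read, while its other probe set stood at -0.54 and was called lower, so its direction is not settled. The changes of RPS27L and TIGAR lay within the range of the non-human controls. With the mean of its probe sets TIGAR was lower, at -0.17.

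**Figure D3:**
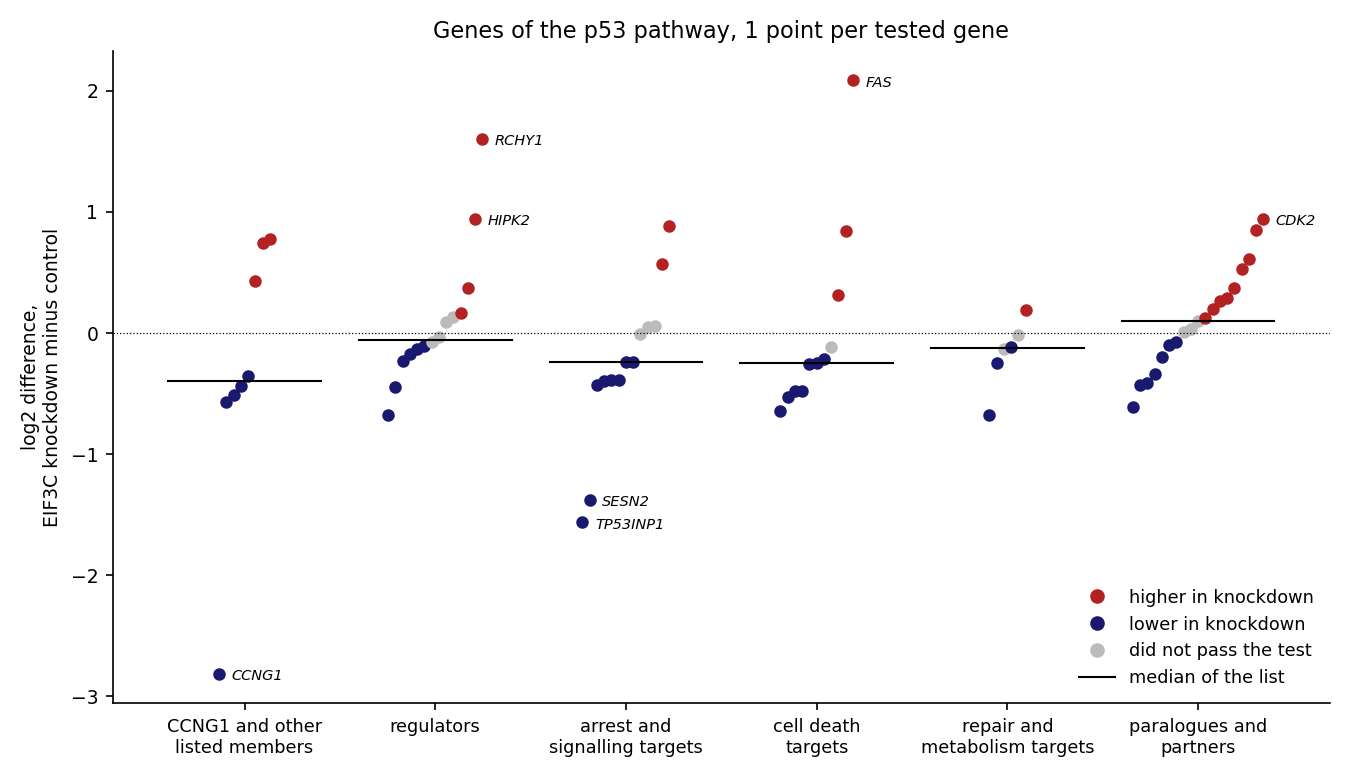
Log2 difference between EIF3C knockdown and control (vertical axis) for each tested gene of 6 lists, red for higher, dark blue for lower and grey for genes that did not pass, with the list's median as a line. CCNG1 at -2.81 and FAS at 2.09 mark the extremes, and the medians of the 3 target lists lie between -0.25 and -0.12. CCNG1 was chosen for its low signal, so its colour is a description and not a test, and the median of its list includes it.

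Paralogues and partners of the set went both ways, with 9 of 19 tested genes higher and 7 lower, set beside 32.4% and 34.1% of all genes (median 0.10). CCNG2, the paralogue of CCNG1, which is driven mainly by FOXO factors, had log2 signals of 7.35, 7.41 and 7.27 in the knockdown arrays, against 8.08, 8.00 and 7.78 in the control arrays. It fell by 0.61 (adjusted p = 4.79e-07 by limma), and its 5 probe sets ran from -0.70 to -0.04. Whether the changes of the paralogues differ was not tested. Partners of cyclin G1 were mixed: the kinase gene GAK and the phosphatase subunit PPP2R5D fell by 0.43 and 0.41, and the subunits PPP2R5C and PPP2R5A rose by 0.29 and 0.26. CDK2, the kinase that p21 inhibits, rose by 0.94 (adjusted p = 1.14e-12 by limma). All 3 tested ribonucleotide reductase genes rose, with RRM1, the large subunit, at 0.53 and RRM2, the S phase small subunit, at 0.61 beside 0.74 for RRM2B. BTG3, an antiproliferative gene of the family of BTG2, rose by 0.85.

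No tested gene around CCNG1 differed by as much as CCNG1 did. Since CCNG1 was chosen for its low signal, this comparison is a description only. Of the 5 protein-coding genes on each side in the RefSeq gene table, 7 were tested, of which 2 rose, 1 fell and 4 did not pass. Over all genes 32.4% rose and 34.1% fell, so these calls are nothing unusual. NUDCD2, whose span overlaps that of CCNG1, stood at 8.75 ± 0.04 in knockdown cells and 9.28 ± 0.07 in control cells (SD, n = 3 each). It fell by 0.53 (adjusted p = 4.16e-09 by limma) on its 1 probe set. HMMR, the hyaluronan-mediated motility receptor and next after NUDCD2, rose by 0.42 (adjusted p = 9.6e-10 by limma) with all 4 of its probe sets called higher. WWC1, which encodes the Hippo pathway protein KIBRA, rose by 0.34 on 1 of its 2 probe sets. MAT2B at 0.07, ATP10B at 0.13, GABRB2 at 0.02 and TENM2 at -0.00 did not pass.

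**Figure D4:**
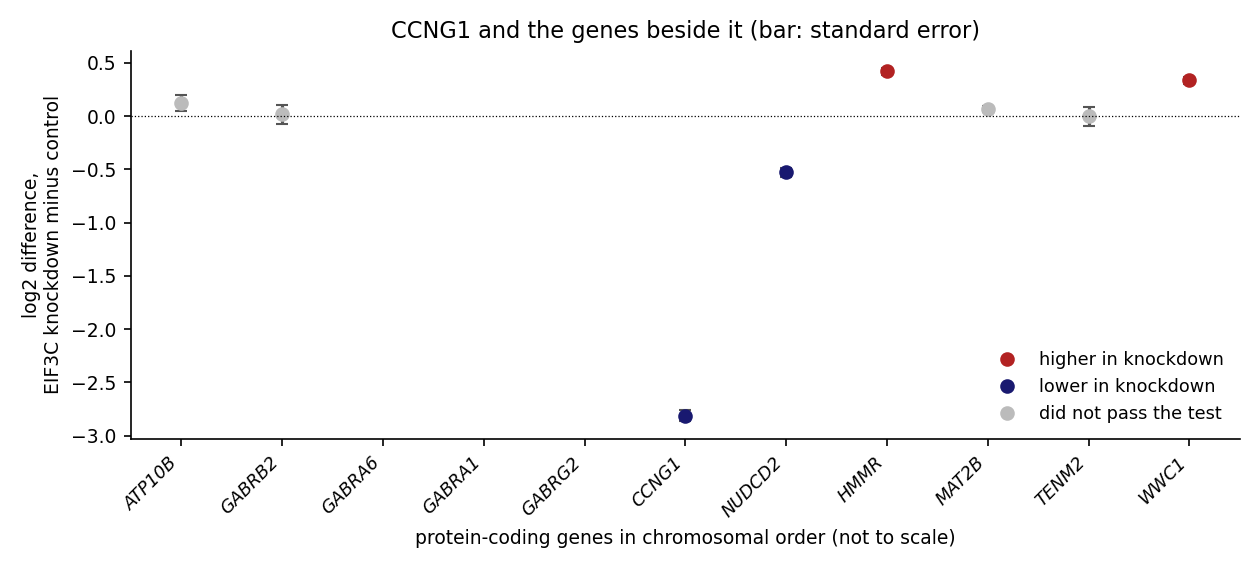
Log2 difference between EIF3C knockdown and control (vertical axis, bars for the standard error) for CCNG1 and the 5 protein-coding genes on each side in chromosomal order, with gaps for the 3 genes that were not tested. CCNG1 stands at -2.81 and its neighbours between -0.53 and 0.42. The colour of CCNG1, chosen for its low signal, is a description and not a test.

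The genes whose profile was most like that of CCNG1 over the 6 arrays were STON1, SLC7A7, COL1A2, PLSCR4 and VTCN1. Likeness was the Euclidean distance between profiles centred on their own mean, and ran from 0.33 for STON1 to 0.43 for VTCN1. With 6 arrays in 2 groups this mainly picks genes with a fall of similar size. STON1, an endocytic adaptor gene, averaged 5.25 ± 0.03 in knockdown cells and 8.28 ± 0.03 in control cells, and SLC7A7, an amino acid transporter subunit, 5.34 ± 0.03 in knockdown cells and 7.86 ± 0.08 in control cells (SD, n = 3 each). PLSCR4, a phospholipid scramblase family gene, averaged 3.95 ± 0.17 in knockdown cells, below the lowest mean kept for testing, and 6.58 ± 0.11 in control cells. A second probe set of STON1 differed by -0.83 and one of PLSCR4 by -0.43, less than the probe sets read here. The weakest probe set of COL1A2 differed by -0.40 and that of VTCN1 by -1.20, and SLC7A7 had 1 probe set only. The smallest difference of a CCNG1 probe set was -2.28.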

How the data were processed

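The authors deposited 1 table of log2 signals with a column per Affymetrix array. MAS5 is the software named, per the submitters' processing notes; its version, background correction, summarisation and log step were not stated. That the unit is log2 was judged from the range of the values, 1.95 to 14.1. Array medians were nearly equal, so scaling was taken as done and a change shared by all genes cannot be measured. Detection calls were not used, so dim probe sets cannot be called absent. Precision is limited by the number of arrays.

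Names came from the platform annotation: of 49293 human probe sets, 44988 had 1 symbol, 1832 several and 2473 none, and 44961 matched a GRCh38.p14 gene table. The lowest 25% of genes by mean were left out. The comparison used limma 3.58.1 in R 4.3.3 (lmFit, eBayes with intensity trend, group as only term), adjusted by Benjamini-Hochberg over 13599 genes, and was tested on simulated data. EIF3C and single probe sets were read from a fit over 49293 probe sets without a filter. Outside the set, up to 4 genes per pathway list with the largest called change were named, or 2 where fewer passed, with CCNG2, RRM1, RRM2, the 5 genes most like CCNG1 and its neighbours. Cell type marker lists are given as counts. Other list genes named were chosen after their values were seen. The set and the lists were chosen with earlier results of these data known. Alternatives were other filters, scalings, probe set summaries, variance models and array weights, a block on the replicate number, and leaving out each array.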

Additional observations from a re-analysis of the deposited data

How the results depend on the processing

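CCNG1 and the other 7 genes of the set kept their direction in 15 of 15 alternatives, and those 7 also stayed past the threshold. The log2 difference of CCNG1 ran from -2.86 to -2.49, RRM2B from 0.71 to 0.91 and ZMAT3 from -0.48 to -0.33, the weakest values of CCNG1 and ZMAT3 coming with the mean of all probe sets. With a 50% filter 1 arrest and signalling target was higher, since PLK3 was no longer tested. That filter also left FAS, TP53INP1, TRIM22, APAF1, SLC7A7, PLSCR4 and VTCN1 untested, so it gives no value for them. With the mean of probe sets 0 repair and metabolism targets were higher by limma (also 0 at an unadjusted p of 0.05), as TIGAR turned to -0.17 (adjusted p = 0.000804), and RPS27L was no longer called (adjusted p = 0.125). MAT2B passed in 4 of 15 alternatives. With the replicate number as a replicate block, 4491 genes were higher and 4816 lower, against 4401 and 4636. The 7 genes beside CCNG1 stayed at 3 higher and 4 lower. Deviations of same-numbered arrays correlated at 0.08, 0.13 and 0.23, and each knockdown array correlated best with the control array of its own number. Control array 1 correlated more with knockdown array 2, at 0.1, than with knockdown array 1. These values do not settle whether the numbers are pairs, and the main fit did not take them as pairs. No detection calls were used, so dim probe sets of MDM2 and RRM2B carry less weight than the bright ones.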
